A study of Mus musculus with 12 samples.

Results

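Toll-like receptors are membrane proteins that recognise molecules of microbes and of damaged cells, and Cd14 is a surface protein that hands lipopolysaccharide and bacterial lipoproteins to some of them. The genes described here are Tlr1, Tlr2, Tlr3, Tlr4, Tlr5, Tlr6, Tlr7, Tlr8, Tlr13 and Cd14, taken by name from the deposited expression table. They make up 10 of its 36400 gene entries. The contrast of interest is between the TLR2 group (Tlr1, Tlr2 and Tlr6) with Tlr13, and the 5 receptors that the study does not discuss (Tlr3, Tlr4, Tlr5, Tlr7 and Tlr8). Bulk RNA was sequenced from dorsal skin of 12 BALB/c mice (female, 6 weeks old), harvested on day 30, in 4 groups of 3. Control mice had vehicle alone (acetone and olive oil) on the shaved back. DNCB mice were sensitized with 1% and challenged again and again with 0.5% DNCB. Mice of the scMSC group had the same DNCB treatment and human umbilical cord mesenchymal stem cells, 2000000 cells a dose in 100 µL under the skin. In the scivMSC group, also on top of DNCB, the dose was divided between the tail vein (50 µL) and the skin (50 µL, subcutaneous).

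Tlr2 pairs with Tlr1 or Tlr6 at the cell surface to bind bacterial lipopeptides, Tlr4 binds lipopolysaccharide and Tlr5 binds flagellin, while Tlr3, Tlr7, Tlr8 and Tlr13 sit in endosomes and sense RNA. Nearly all of these receptors signal through the adaptor Myd88 to NF-κB, Tlr4 also uses the adaptor Ticam1, and Tlr3 uses Ticam1 in place of Myd88. In skin, keratinocytes, resident macrophages and mast cells carry some of these receptors, and neutrophils and monocytes that enter inflamed skin carry many.

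The libraries hold skin: Krt10, a keratin of the upper epidermis, had a mean of 4120 FPKM over the 12 libraries, and the 5 keratinocyte markers summed to 4360, 6560 and 9600 FPKM in control mice. They hold skeletal muscle RNA as well: its 4 markers summed to 16200, 17200 and 11700 FPKM in control mice and 3150, 3940 and 4740 in DNCB, and their part in the results was not tested. Control 3 stands apart from the other control libraries for the genes described here. It has the highest FPKM of the 3 control libraries for each of the 10 genes, and its 13 monocyte and macrophage markers sum to 898 FPKM, against 234 and 253 in the other control libraries. Every gene of the 10 was tested, and their lowest deposited count was 23 (Tlr13 in control 2).

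A gene counts as called when edgeR gives it an adjusted p under 0.05 with a log2 fold change past 1 in size. On that rule 6 of the 10 genes were higher in DNCB than in control skin: Tlr1, Tlr2, Tlr6, Tlr13, Cd14 and Tlr4. Against scMSC the count was 5, without Tlr4, and against scivMSC it was 4, without Tlr4 and Tlr13. No gene of the 10 was called lower in DNCB in these 3 comparisons. Without control 1 the count against control is 3 (Tlr1, Tlr2 and Cd14). The background is 14.2% of the 21890 tested genes called in either direction against control (3098 genes), 8.5% against scMSC (1861) and 5.46% against scivMSC (1195), of which the higher calls are 6.59% (1442), 3.84% (840) and 2.33% (509). The median log2 fold change of the 10 genes was 1.95, 2.24 and 1.82 in the 3 comparisons, and that of all tested genes was 0.02, -0.02 and -0.02. These 3 comparisons share the same 3 DNCB libraries, so a high or low DNCB value enters all of them. The study singled out Tlr1, Tlr2, Tlr6, Tlr13 and Cd14 from these same animals, so their count is no independent evidence of a direction. In bulk tissue, fewer cells of a type and less RNA per cell cannot be told apart, which holds for every gene below.

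The FPKM of the 3 DNCB libraries lay above all 3 control libraries for 7 of the 10 genes (the 6 called and Tlr8), where 31.7% of all tested genes do so (6932). They lay above all 3 scMSC libraries for the same 7 (17.1% of tested genes, 3744) and above all 3 scivMSC libraries for 6 (16.3%, 3578). For Tlr1, Tlr2, Tlr4, Tlr6, Tlr13 and Cd14 each DNCB library was above all 9 others, as for 9.44% of tested genes (2067). Tlr3, Tlr5 and Tlr7 overlapped between DNCB and every other group.

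**Figure D1:**
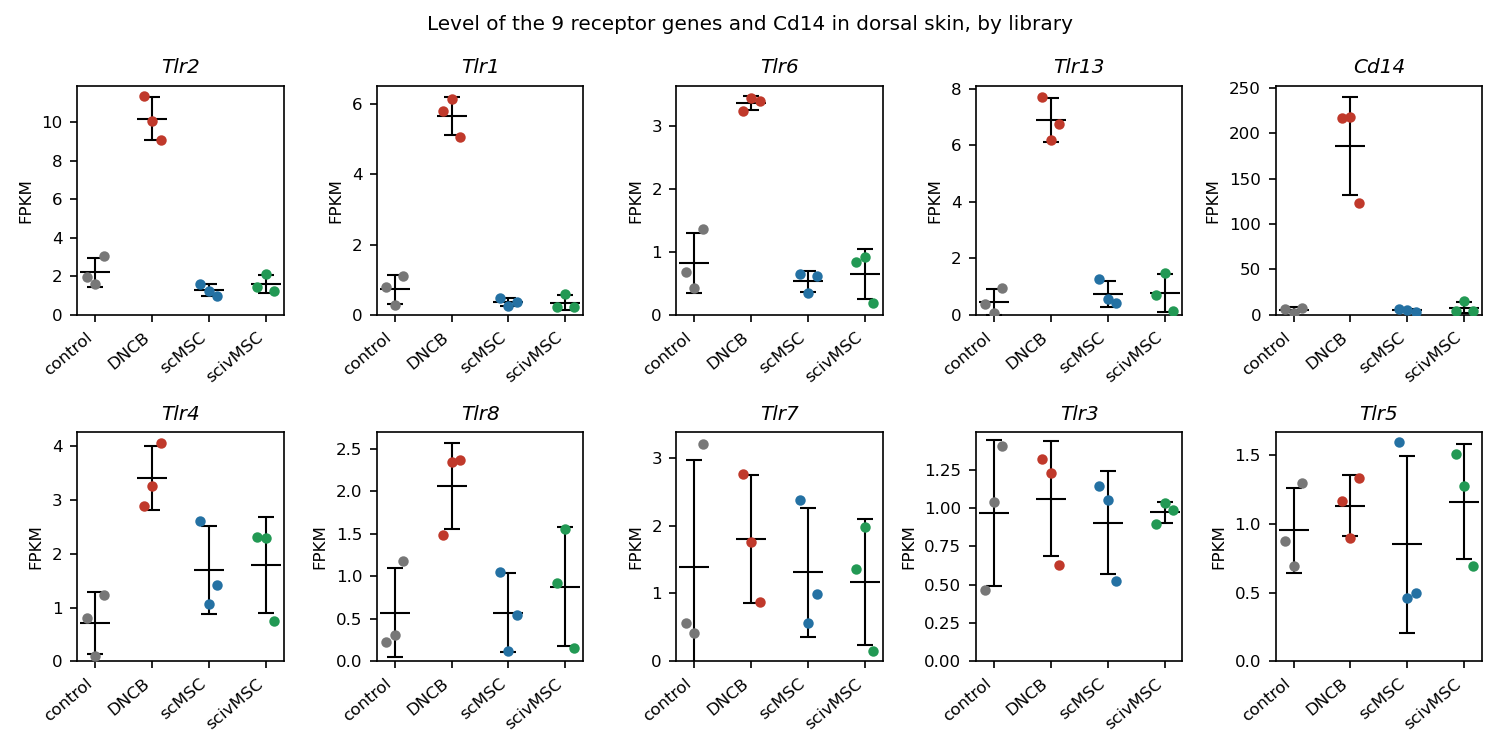
FPKM of each gene in each of the 12 libraries, as points by group with the mean and SD of 3 mice. Tlr1, Tlr2, Tlr4, Tlr6, Tlr13 and Cd14 lie above all 9 other libraries in DNCB (Cd14 mean 186 FPKM), while Tlr3, Tlr5 and Tlr7 overlap across the 4 groups.

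Tlr2 is the shared partner of the TLR2 group and lies on chromosome 3, from 83836272 to 83841767 (GRCm38, gene ENSMUSG00000027995). Its FPKM was 1.95, 1.63 and 3.07 in control mice, 11.4, 10.1 and 9.11 in DNCB, 1.62, 1.23 and 0.989 in scMSC, and 1.46, 2.12 and 1.24 in scivMSC. The lowest DNCB mouse was well above the highest mouse of any other group. The scivMSC mice overlap control and scMSC mice, while the lowest control mouse (1.63) lies just above the highest scMSC mouse (1.62). The log2 fold change of DNCB was 2.03 ± 0.27 (SE) against control (adjusted p = 0.000917, 4.08-fold), 2.97 ± 0.28 against scMSC (adjusted p = 0.000773) and 2.66 ± 0.28 against scivMSC (adjusted p = 0.002), with 3 mice a group.

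Tlr1, which with Tlr2 recognises triacylated lipopeptides, lies on chromosome 5 from 64924679 to 64933561 (ENSMUSG00000044827). Its FPKM was 0.804, 0.269 and 1.10 in control mice, 5.80, 6.13 and 5.08 in DNCB, 0.472, 0.245 and 0.372 in scMSC, and 0.224, 0.598 and 0.238 in scivMSC. DNCB mice form a tight group near 5.67 FPKM (mean, SD 0.54), and every other mouse lies at or under 1.10. Tlr1 rose by a log2 fold change of 2.79 ± 0.50 against control (adjusted p = 0.00292, 6.94-fold), and stood higher by 3.94 ± 0.53 against scMSC (adjusted p = 0.0022) and 4.00 ± 0.53 against scivMSC (adjusted p = 0.00415).

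Tlr6, the partner for diacylated lipopeptides, lies 18469 bases from Tlr1 on chromosome 5, from 64952031 to 64960048 (ENSMUSG00000051498). Its FPKM was 0.678, 0.432 and 1.36 in control mice, 3.24, 3.44 and 3.39 in DNCB, 0.651, 0.344 and 0.613 in scMSC, and 0.833, 0.916 and 0.192 in scivMSC. The DNCB mice differ little from one another (SD 0.107), and control 3 is the closest to them. Log2 fold changes were 1.87 ± 0.52 against control (adjusted p = 0.0242), 2.63 ± 0.54 against scMSC (adjusted p = 0.0102) and 2.39 ± 0.53 against scivMSC (adjusted p = 0.0233). The call against control is lost without control 1 (adjusted p = 0.0919), control 2 (0.0888), DNCB 1 (0.0548), DNCB 2 (0.0581) or DNCB 3 (0.0568). Against scivMSC it is lost without DNCB 1 (adjusted p = 0.0641), DNCB 2 (0.0682), DNCB 3 (0.0606) or scivMSC 1 (0.0647).

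Tlr13, a mouse receptor for bacterial 23S ribosomal RNA, lies on chromosome X from 106143204 to 106160493 (ENSMUSG00000033777). Its FPKM was 0.376, 0.0709 and 0.967 in control mice, 7.71, 6.17 and 6.76 in DNCB, 1.26, 0.546 and 0.426 in scMSC, and 0.701, 1.5 and 0.146 in scivMSC. All DNCB mice exceed 6 FPKM, and the other 9 range from 0.0709 to 1.5 with wide spread inside each group. Against control the log2 fold change was 3.72 ± 0.91 (adjusted p = 0.0128, 13.2-fold), and against scMSC it was 3.20 ± 0.89 (adjusted p = 0.0383). Against scivMSC it was 3.16 ± 0.88 and missed the threshold (adjusted p = 0.0529), although DESeq2 gave an adjusted p of 0.000731 there. That adjusted p falls under 0.05 without control 2 (0.0329), control 3 (0.0446) or scivMSC 2 (0.0388). Without control 3 the log2 fold change against control is 4.68, and without scivMSC 2 that against scivMSC is 4.02. The call against control is lost without control 1 (adjusted p = 0.0554). The call against scMSC is lost without control 1 (adjusted p = 0.0539), DNCB 1 (0.0909), DNCB 2 (0.0781), DNCB 3 (0.0798), scMSC 2 (0.129), scMSC 3 (0.122) or scivMSC 1 (0.0542).

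Cd14 had the highest FPKM of the 10 genes in every group mean and lies on chromosome 18 from 36725067 to 36726798 (ENSMUSG00000051439). Its FPKM was 6.63, 2.56 and 8.05 in control mice, 216, 217 and 124 in DNCB, 6.46, 5.83 and 3.61 in scMSC, and 4.23, 15.0 and 4.48 in scivMSC. DNCB 3 was lower than DNCB 1 and DNCB 2, yet several times above scivMSC 2, the highest of the other 9 mice. Cd14 rose against control by a log2 fold change of 4.85 ± 0.60 (adjusted p = 0.000724, 28.7-fold), and the difference was 5.10 ± 0.61 against scMSC (adjusted p = 0.0018, 34.4-fold) and 4.56 ± 0.59 against scivMSC (adjusted p = 0.00398, 23.6-fold). Without scivMSC 2 the log2 fold change of Cd14 against scivMSC is 5.38. Tlr1, Tlr2 and Cd14 were called higher in DNCB in all 3 comparisons whichever of the 12 libraries was left out.

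Tlr4, the lipopolysaccharide receptor that Cd14 serves, is 1 of the 5 receptors the study leaves aside and lies on chromosome 4 from 66827584 to 66930284 (ENSMUSG00000039005). Its FPKM was 0.804, 0.108 and 1.24 in control mice, 2.90, 3.26 and 4.06 in DNCB, 2.62, 1.08 and 1.41 in scMSC, and 2.31, 2.30 and 0.751 in scivMSC. Control mice were lowest on average and DNCB mice highest, with the MSC groups between them and scMSC 1 close to DNCB 1. The log2 fold change was 2.08 ± 0.68 against control (adjusted p = 0.0451, 4.24-fold). Against scMSC it was 0.99 ± 0.66 (95% interval -0.46 to 2.44, adjusted p = 0.398) and against scivMSC 0.94 ± 0.66 (-0.50 to 2.39, adjusted p = 0.447), neither past the threshold. The call against control is lost without control 1 (adjusted p = 0.106), control 2 (0.0548), DNCB 1 (0.0759), DNCB 2 (0.0841), DNCB 3 (0.106), scMSC 2 (0.0591), scMSC 3 (0.057), scivMSC 1 (0.0571) or scivMSC 2 (0.0561). It is kept without control 3, scMSC 1 or scivMSC 3. With all 12 libraries it is also lost without a filter (adjusted p = 0.0571) or with a replicate block (0.0573), as it is with the 6 libraries alone (0.0751).

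Tlr8, an endosomal RNA receptor on chromosome X (167242696 to 167264329, ENSMUSG00000040522), had 0.234, 0.309 and 1.18 FPKM in control mice, 1.48, 2.35 and 2.37 in DNCB, 1.05, 0.12 and 0.549 in scMSC, and 0.920, 1.56 and 0.160 in scivMSC. DNCB mice were above all control and scMSC mice, but scivMSC 2 (1.56) exceeded DNCB 1 (1.48). Its log2 fold change was 1.69 ± 0.87 against control (95% interval -0.21 to 3.6, adjusted p = 0.182), 1.85 ± 0.87 against scMSC (-0.06 to 3.77, adjusted p = 0.213) and 1.25 ± 0.85 against scivMSC (adjusted p = 0.435). Without control 3 the value against control is 2.66, still short of the threshold (adjusted p = 0.078), without scMSC 1 that against scMSC is 2.59, and without scivMSC 2 that against scivMSC is 1.94.

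Tlr7, the single-stranded RNA receptor 40599 bases from Tlr8 (167304929 to 167330558, ENSMUSG00000044583), had 0.565, 0.411 and 3.20 FPKM in control mice, 2.76, 1.76 and 0.873 in DNCB, 2.38, 0.562 and 0.996 in scMSC, and 1.37, 1.98 and 0.153 in scivMSC. Its highest value of all 12 libraries is control 3, and the groups overlap throughout. The log2 fold change against control was 0.23 ± 0.92 (95% interval -1.79 to 2.26, adjusted p = 0.889), 0.46 ± 0.92 against scMSC (adjusted p = 0.83) and 0.65 ± 0.92 against scivMSC (adjusted p = 0.749). Without control 3 the value against control is 1.62 (adjusted p = 0.247), without scMSC 1 that against scMSC is 1.16, and without scivMSC 2 that against scivMSC is 1.25.

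Tlr3, the receptor for double-stranded RNA on chromosome 8 (45395665 to 45411080, ENSMUSG00000031639), had 0.463, 1.04 and 1.41 FPKM in control mice, 1.32, 1.23 and 0.632 in DNCB, 1.14, 1.05 and 0.522 in scMSC, and 0.896, 1.03 and 0.987 in scivMSC. Tlr5, the flagellin receptor on chromosome 1 (182954788 to 182976044, ENSMUSG00000079164), had 0.878, 0.692 and 1.29 FPKM in control mice, 1.16, 0.896 and 1.34 in DNCB, 1.59, 0.464 and 0.499 in scMSC, and 1.51, 1.28 and 0.694 in scivMSC. For Tlr3 and Tlr5 the 4 groups overlap, with group means from 0.852 to 1.16 FPKM, although scMSC 2 and scMSC 3 lie below every mouse of the other groups for Tlr5. Against control, the log2 fold change of Tlr3 was -0.04 ± 0.42 (95% interval -0.97 to 0.90, adjusted p = 0.967; the sign turns with scaling by library size alone, 0.13) and that of Tlr5 was 0.07 ± 0.45 (-0.92 to 1.07, adjusted p = 0.932). Against scMSC they were 0.21 ± 0.43 (adjusted p = 0.836) and 0.41 ± 0.45 (adjusted p = 0.653), and against scivMSC 0.12 ± 0.42 (adjusted p = 0.914) and -0.03 ± 0.45 (adjusted p = 0.99). Without scMSC 1, the log2 fold change of Tlr5 against scMSC is 1.17 (adjusted p = 0.0621). The intervals are wide enough to hold changes of close to 2-fold in either direction for Tlr3 and Tlr5 against control. Of the 5 receptors that the study does not discuss, 1 of 5 (Tlr4) was called against control and 0 of 5 against scMSC or scivMSC by edgeR, where 0 had an unadjusted p under 0.05 and DESeq2 and limma also called 0. With 14.2, 8.5 and 5.46% of all tested genes called, such counts out of 5 are near the background. Whether any 2 receptors differ in their fold change was not tested.

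**Figure D2:**
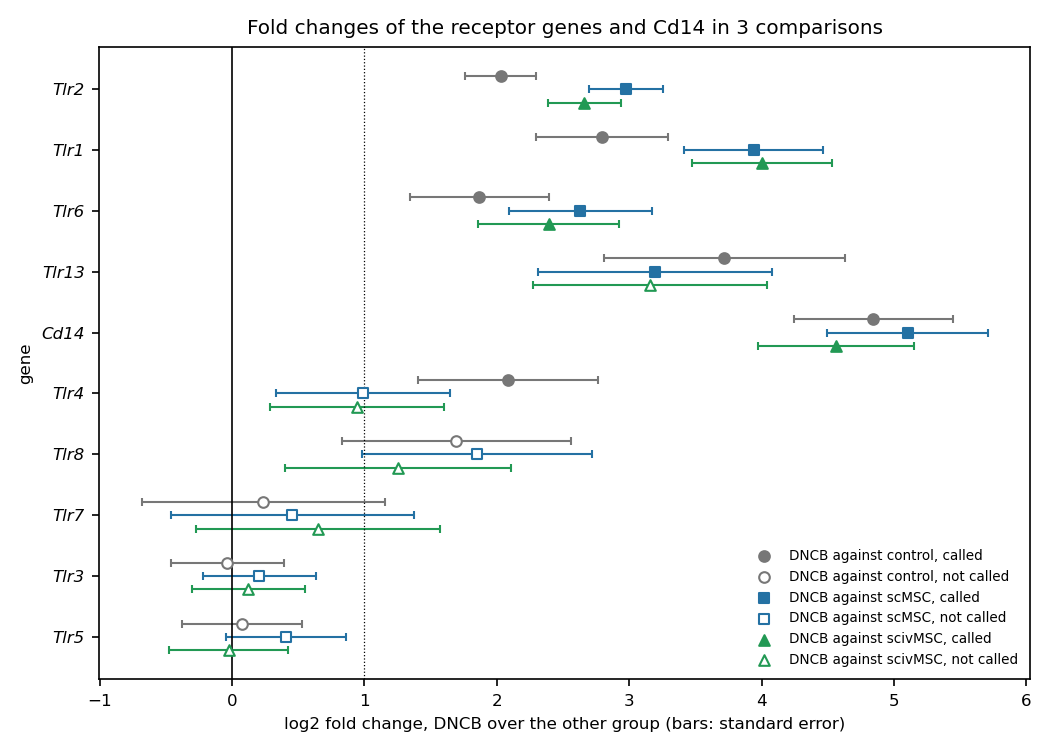
Log2 fold change (edgeR, ± SE) of DNCB against control, scMSC and scivMSC for the 10 genes, filled where called, with a dotted line at a log2 fold change of 1. Cd14 is largest (4.85, 5.10 and 4.56), and Tlr3 and Tlr5 lie near 0.

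Summed over the 12 mouse receptor genes in the table (these 9 with Tlr9, Tlr11 and Tlr12), receptor RNA came to 7.17, 5.29 and 16.1 FPKM in control mice and 38.3, 36.0 and 34.1 in DNCB. It was 13.4, 5.77 and 6.68 FPKM in scMSC and 10.5, 13.7 and 4.58 in scivMSC. DNCB libraries hold more than any other library, and control 3 is the next. Tlr13 made up 20.1, 17.2 and 19.8% of that sum in DNCB mice, 5.24, 1.34 and 6.0% in control, 9.44, 9.48 and 6.37% in scMSC and 6.69, 10.9 and 3.19% in scivMSC. The TLR2 group made up 53.3, 54.6 and 51.5% in DNCB, 47.9, 44.0 and 34.3% in control, 20.5, 31.5 and 29.5% in scMSC, and 24.1, 26.5 and 36.5% in scivMSC. So the share of Tlr13 in DNCB lies apart from all 9 other libraries, and the share of the TLR2 group is lower in every control and MSC-treated mouse than in every DNCB mouse. Tlr3, Tlr4, Tlr5, Tlr7 and Tlr8 together held 25.2, 26.4 and 27.2% in DNCB, 41.1, 48.4 and 51.7% in control, 65.8, 56.8 and 59.6% in scMSC, and 66.8, 59.4 and 60.0% in scivMSC. These shares are a description and were not tested.

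**Figure D3:**
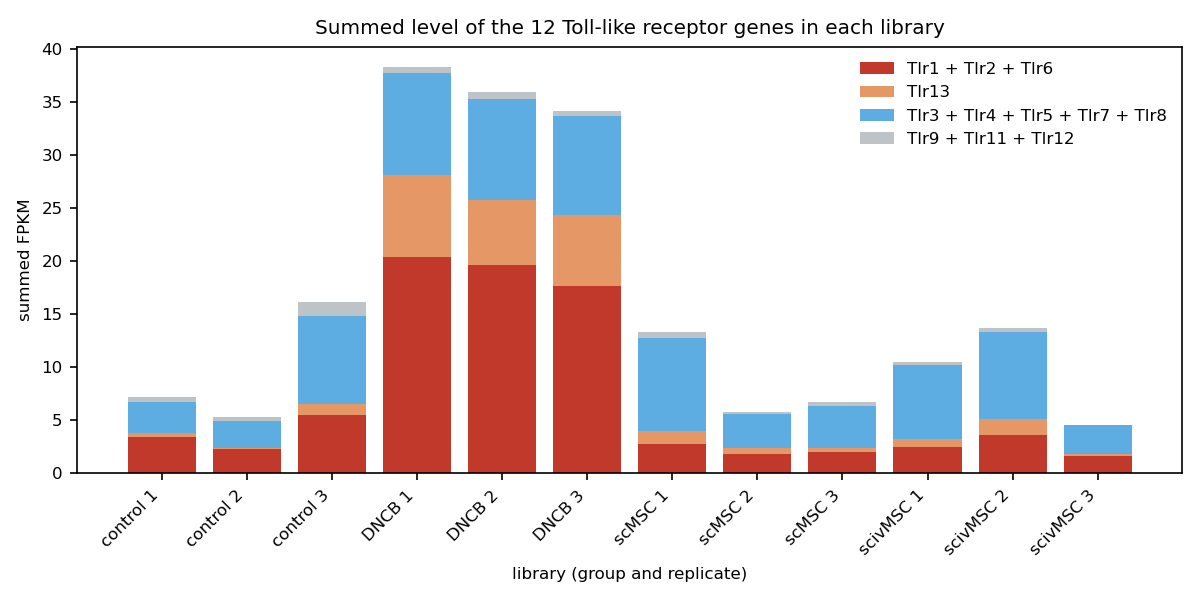
Summed FPKM of the 12 receptor genes in each library, stacked as the TLR2 group, Tlr13, the 5 other receptors described here, and Tlr9, Tlr11 and Tlr12. DNCB 1 reaches 38.3 FPKM, and the Tlr13 layer is 20.1% of it.

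The order of mean FPKM among receptors differed between groups. In control skin Tlr2 had the highest mean (2.22 ± 0.754, SD), followed by Tlr7 (1.39 ± 1.57), Tlr3 (0.969), Tlr5 (0.954), Tlr6 (0.824), Tlr1 (0.726), Tlr4 (0.719) and Tlr8 (0.575), with Tlr13 lowest of the 9 (0.471 ± 0.456). No neighbours in this order differ beyond their spread, Tlr2 and Tlr7 included, and in control 3 Tlr7 (3.20) exceeds Tlr2 (3.07). DNCB skin had Tlr2 first (10.2 ± 1.13), then Tlr13 (6.88 ± 0.773), Tlr1 (5.67 ± 0.54), Tlr4 (3.41 ± 0.596), Tlr6 (3.36 ± 0.107), Tlr8 (2.06), Tlr7 (1.8), Tlr5 (1.13) and Tlr3 (1.06). There the ranges of mean ± SD overlap for Tlr13 and Tlr1, Tlr4 and Tlr6, Tlr8 and Tlr7, Tlr7 and Tlr5, and Tlr5 and Tlr3. With MSCs, Tlr4 had the highest mean (1.7 ± 0.813 in scMSC and 1.79 ± 0.896 in scivMSC), Tlr2 had 1.28 ± 0.318 and 1.61 ± 0.456, and Tlr1 was the lowest of the 9 (0.363 and 0.353), again with neighbours whose ranges of mean ± SD overlap. The ratio of Tlr2 to Tlr4 in FPKM was 3.92, 3.09 and 2.24 in DNCB mice, 0.617, 1.14 and 0.7 in scMSC, 0.634, 0.922 and 1.65 in scivMSC, and 2.43, 15.0 and 2.46 in control, where control 2 rests on 0.108 FPKM of Tlr4. Tlr2 thus exceeded Tlr4 in every control and DNCB mouse but in 1 of 3 mice of each MSC group.

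MSC-treated and control skin gave 0 called genes of the 10 by edgeR, in scMSC (9.32% of tested genes called, 2040) as in scivMSC (6.85%, 1500), and so did scMSC against scivMSC (0.00457%, 1 gene). At an unadjusted p under 0.05 the counts were 2, 2 and 0, DESeq2 called 0, 1 (Tlr1, adjusted p = 0.0469) and 0, and limma called 0 in each. The median log2 fold change of the 10 genes was -0.25, -0.03 and -0.16, beside 0, 0.04 and -0.01 for all tested genes. Tlr1 and Tlr2 were chosen for naming after their values were seen, with Tlr4 for contrast. For Tlr2 in scMSC the difference from control on the log2 scale was -0.94 ± 0.26, past the adjusted threshold (adjusted p = 0.0305) but under the fold threshold, and -0.63 ± 0.26 in scivMSC (adjusted p = 0.142). The former misses the threshold without control 1 (adjusted p = 0.0531), control 3 (0.0898), scMSC 2 (0.0751) or scMSC 3 (0.0992), and with library size alone (0.0747), limma (0.0788 and 0.0968), the 6 libraries alone (0.106) or a replicate block (0.0563). For Tlr1 the values were -1.15 ± 0.48 (adjusted p = 0.127) and -1.21 ± 0.48 (adjusted p = 0.131), and for Tlr4 1.09 ± 0.66 (adjusted p = 0.289) and 1.14 ± 0.66 (adjusted p = 0.303). Without control 2, Tlr1 passes in scMSC (adjusted p = 0.0307) and scivMSC (0.0362), and the counts of called genes among the 10 become 2 and 1. Without scMSC 1 the count in scMSC is 1.

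Reported endogenous ligands of Tlr2 and Tlr4 were measured in the same libraries, and 5 of 7 were called higher in DNCB than in control, 4 against scMSC and 4 against scivMSC, with median log2 fold changes of 2.69, 2.08 and 1.89. Among all tested genes, 6.59, 3.84 and 2.33% were called higher in these comparisons. Tnc, a matrix protein of wounds, had a mean of 75.2 FPKM in DNCB and 2.39 in control (log2 fold change 4.78 ± 0.47, adjusted p = 0.000431). S100a9 and S100a8, which form the calcium-binding complex calprotectin of neutrophils and stressed keratinocytes, had log2 fold changes of 4.20 ± 0.74 (adjusted p = 0.00265) and 3.98 ± 0.60 (adjusted p = 0.00142), and both are also in the neutrophil list below. Vcan, a matrix proteoglycan, rose against control by 2.69 ± 0.53 (adjusted p = 0.00451), with 1.00 against scMSC (adjusted p = 0.24) and 1.05 against scivMSC (adjusted p = 0.247), and it passes against scMSC without scMSC 3 (1.81, adjusted p = 0.0293). Hspd1 (mean 92.5 FPKM over 12 libraries) and Hmgb1 (7.99 FPKM), the most abundant ones not called, are a mitochondrial chaperone and a chromatin protein.

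Shares called among signalling genes downstream of the receptors are to be read beside the 14.2, 8.5 and 5.46% of all tested genes called in these comparisons. Of 11 accessory and trafficking genes, 1 was called higher in each of the 3 comparisons (median log2 fold change 0.49, 1.00 and 0.63; 2 against scMSC without control 3, scMSC 1 or scivMSC 3), namely Slc15a3, an endosomal transporter of bacterial peptides (3.56 ± 0.39 against control, adjusted p = 0.000513). In either direction DESeq2 calls 1, 4 and 3 of the 11, limma on log2(FPKM + 0.1) 1, 2 and 1, and the 6 libraries alone 1, 1 and 2. The exons of Slc15a3 share 1541 bases with Tmem132a on the other strand, and the strand of counting is not stated. Hsp90b1, the chaperone that folds the receptors, and Cd36, a scavenger receptor that serves Tlr2, were the most abundant genes of that list not called (105 and 50 FPKM). Of 6 adaptors, 1 was called higher in each comparison (median 0.23, 0.62 and 0.55): Pik3ap1, which links receptors to phosphoinositide 3-kinase, at 1.82 ± 0.49 against control (adjusted p = 0.0195). That call is lost without control 1 (adjusted p = 0.0808), control 2 (0.0713), DNCB 1 (0.0536) or DNCB 2 (0.052). Myd88, the adaptor of most of the receptors, had a mean of 24.0 FPKM in DNCB and 13.3, 13.3 and 17.5 in control, scMSC and scivMSC. Its log2 fold change of 0.67 ± 0.17 against control passes on adjusted p alone (0.0151), not on fold, and loses that without control 1 (adjusted p = 0.0859) or control 2 (0.0787).

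None of 17 kinases and ubiquitin ligases was called by edgeR in the 3 comparisons (median log2 fold change 0.13, 0.03 and 0.02). At an unadjusted p under 0.05 there were 5, 3 and 2, DESeq2 called 0 in each, and limma on log2(FPKM + 0.1) called 2, 0 and 0. The 9 transcription factors also gave 0 in each (median -0.30, 0.26 and 0.34), with 2, 2 and 1 at an unadjusted p under 0.05. DESeq2 called 0 of them, and limma on log2(FPKM + 0.1) called 1, 0 and 0. Tab2 and Map3k7 (21.4 and 11 FPKM over 12 libraries), kinase-complex members, and Rela and Irf3 (18.1 and 10.9 FPKM) are the most abundant of these 2 lists. Of 13 inhibitors, 1 was called higher and 1 lower against control, 3 higher against scMSC and 1 higher against scivMSC (median 0.26, 0.79 and 0.46). The higher count against control is 2 without DNCB 3, and that against scMSC is 1 without DNCB 1 and 5 without scMSC 1, while limma on log2(FPKM + 1) calls 0 in either direction against control and scMSC. Nfkbie, which holds NF-κB in the cytoplasm, rose by 1.06 ± 0.25 against control (adjusted p = 0.00999), and the fold drops under the threshold without control 3 or DNCB 1. Sigirr, a receptor-like brake on Toll-like receptor signalling, fell by 1.03 on the log2 scale (SE 0.26, adjusted p = 0.0146), a call lost without DNCB 2 (adjusted p = 0.0526). Nfkbia and Dusp1, an NF-κB inhibitor and a MAP kinase phosphatase, are the most abundant inhibitors not called against control (49.1 and 35.5 FPKM).

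Calls among genes that the pathway is known to induce are to be read beside the 6.59, 3.84 and 2.33% of all tested genes called higher. Of 21 tested target genes (of 23; Il12b and Ifnb1 were too low to test), 12 were called higher in DNCB than in control, 14 than in scMSC and 12 than in scivMSC, with median log2 fold changes of 3.51, 4.60 and 3.82. Ccl4, a chemokine, had 170, 92.8 and 89.8 FPKM in the DNCB mice against a control mean of 1.04 (log2 fold change 6.64 ± 1.00, adjusted p = 0.00137). Acod1, the enzyme that makes itaconate, rose by 6.49 ± 1.33 (adjusted p = 0.00552), from a control mean of 0.46 FPKM to 46.9, and by 7.34 without control 1 or 5.87 without control 2. Ccl3, a chemokine next of kin to Ccl4, rose by 6.42 ± 1.24 (adjusted p = 0.00409), with means of 1.07 and 106 FPKM. Cxcl2, which attracts neutrophils, rose by 6.38 ± 1.60 (adjusted p = 0.0144), a call lost without control 3 (adjusted p = 0.053), and the value is 7.48 without control 1. Il1a and Ccl2 (8.65 and 2.53 FPKM over 12 libraries), an interleukin and a monocyte chemokine, are the most abundant targets not called against control. The count against scivMSC drops to 5 without DNCB 1, DNCB 3 or scivMSC 1, and to 6 without DNCB 2, without scivMSC 3 or with a replicate block.

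By edgeR, markers of neutrophils were called higher beside these genes and those of monocytes and macrophages were not. The part of either in the results was not tested. Among all tested genes, 6.59, 3.84 and 2.33% were called higher in DNCB against control, scMSC and scivMSC (14.2, 8.5 and 5.46% in either direction). Of 10 neutrophil markers, 9, 9 and 8 were called higher in these 3 comparisons. They summed to 3180, 3460 and 2510 FPKM in DNCB, 125, 122 and 209 in control, 42.7, 66.3 and 16.7 in scMSC, and 35.7, 181 and 83 in scivMSC. The sum is highest in the 3 mice in which Tlr1, Tlr2, Tlr4, Tlr6, Tlr13 and Cd14 are highest. S100a9 is the most abundant gene of the list (mean 535 FPKM over the 12 libraries). The defining marker Ly6g is at 0 in all 9 libraries outside DNCB, Mmp8 is at 0 in 4 libraries, Ngp in 3, and Retnlg and Camp in 2 each. The 13 monocyte and macrophage markers had a median log2 fold change of 0.54, 1.37 and 1.29 in the 3 comparisons. Limma called 0, 1 and 0 of them on log2(FPKM + 0.1) and 1, 1 and 1 on log2(FPKM + 1), and DESeq2 called 0, 4 and 4. At an unadjusted p under 0.05 there were 1, 4 and 4, and edgeR called 0 in each comparison. Without control 3 the counts are 1, 3 and 2, and against scMSC 1 is called without control 1, 2 without scMSC 1, 4 without scivMSC 3 and 7 when only the 6 libraries compared are fitted. Against scivMSC, 1 is called without scMSC 1 and 2 when only those 6 libraries are fitted. They summed to 796, 854 and 881 FPKM in DNCB, 234, 253 and 898 in control, 462, 192 and 216 in scMSC, and 389, 488 and 58.4 in scivMSC, with Lyz2 most abundant (mean 231 FPKM). Control 3 is thus as high as DNCB mice. The lowest sum is in scivMSC 3, which is the lowest library for 2 of the 10 genes (Tlr6 and Tlr7) and not for the other 8.

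**Figure D4:**
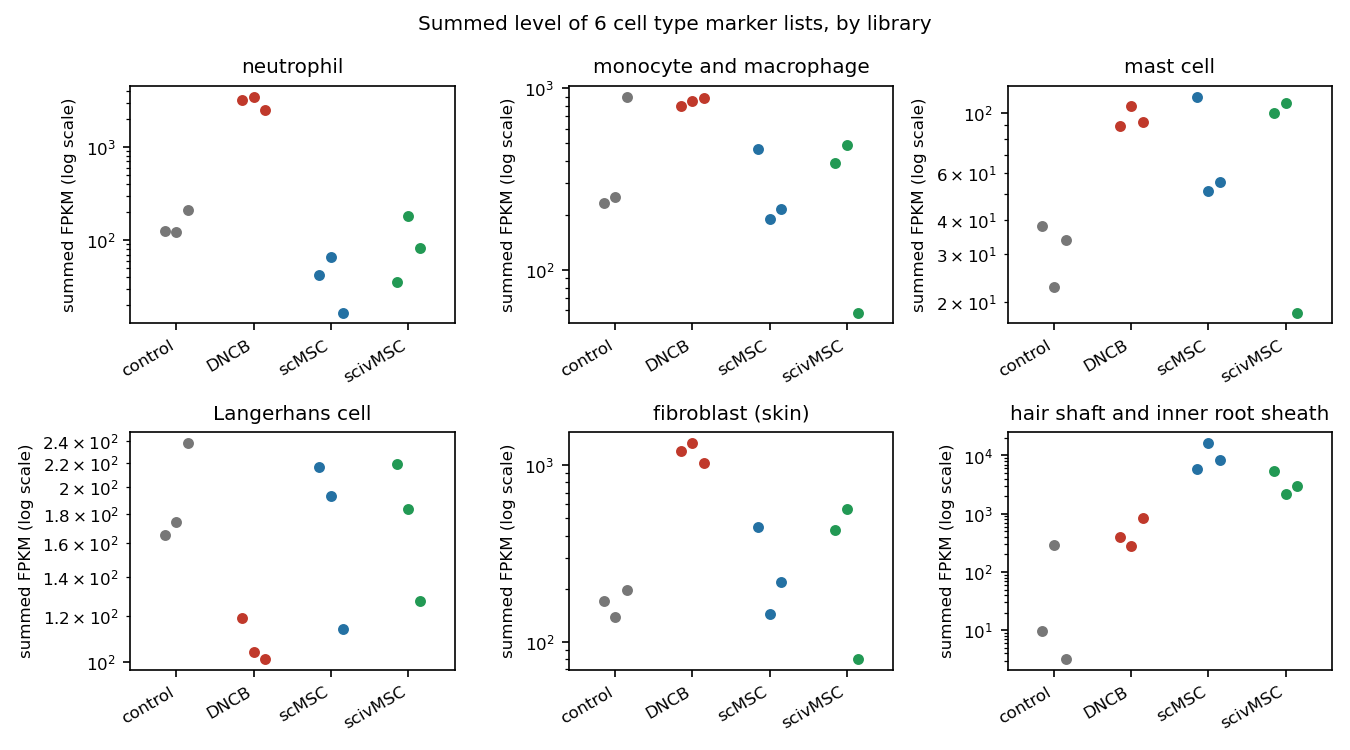
Summed FPKM of 6 marker lists in each library, on a log axis, as points by group. Neutrophil (2510 to 3460 FPKM) and fibroblast markers (1030 to 1330 FPKM) separate DNCB from the other 9 libraries, and monocyte and macrophage markers do not (control 3 at 898 FPKM). The neutrophil sum in DNCB is mostly S100a9 and S100a8, which stressed keratinocytes also make.

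Mast cells are also known to carry Tlr2 and Tlr4, and their markers gave 1, 0 and 0 of 7 called higher in DNCB against control, scMSC and scivMSC. In either direction, 5, 1 and 1 have an unadjusted p under 0.05 (against scMSC it is Kit, which is lower in DNCB), DESeq2 calls 3, 0 and 0, and limma on log2(FPKM + 0.1) calls 2, 0 and 0. With only the 6 libraries compared, 4 are called against control. The count against control is 0 when any 1 control or DNCB library is left out and 4 without scivMSC 3, and against scMSC it is 1 without scMSC 1. They summed to 38.2, 22.6 and 33.7 FPKM in control, 89.4, 106 and 92.8 in DNCB, 115, 51.4 and 55.7 in scMSC, and 100, 109 and 18.2 in scivMSC, with Mcpt4 most abundant (21.5 FPKM) and their part not tested. Among all tested genes, 14.2, 8.5 and 5.46% were called in either direction in DNCB against control, scMSC and scivMSC. Those called lower in DNCB were 1656, 1021 and 686 of 21890. Langerhans cell markers gave 2, 2 and 1 of 4 called lower in DNCB (1 in each comparison by limma), with Cd74 most abundant (76.1 FPKM). Their sums were 165, 174 and 238 FPKM in control, 119, 104 and 101 in DNCB, 217, 193 and 114 in scMSC, and 219, 183 and 127 in scivMSC, with scMSC 3 (114) inside the range of the DNCB mice.

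The genes with the most similar profile to each of the 10 were found by the Pearson correlation of log2(FPKM + 0.1) over 12 libraries, among 14377 tested genes that average 1 FPKM or more. These are descriptions over 12 points in 4 groups. For Tlr2 they were Hcar2 (r = 0.989), Lilr4b (0.984) and Clec7a (0.983), for Tlr1 Pik3ap1 (0.977), Lyn (0.971) and Csf3r (0.966), and for Tlr6 Fcer1g (0.984), Lcp2 (0.982) and Slc11a1 (0.981). Tlr13 was closest to Adgra2 (0.982), Selenon (0.981) and Elk3 (0.98), and Cd14 to Ccr1 (0.992), Srgn (0.992) and Trem3 (0.988). Whether these genes as a set belong to any cell type was not tested. Tlr4 was closest to Rreb1 (0.973), Shc1 (0.972) and Tnrc18 (0.969), and Tlr8 to Slc7a7 (0.975), Ms4a6c (0.969) and Cd300ld3 (0.967). For Tlr7 the closest were AU040320 (0.93), Sppl2a (0.918) and Chp2 (0.91), for Tlr5 Zfp36l2 (0.934), Tnfsfm13 (0.926) and Rassf4 (0.912), and for Tlr3 Gm10774 (0.903), Gm13414 (0.851) and Prdx5 (0.843).

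Tlr1 and Tlr6 share sequence: they have 340 stretches of 75 bases in common, and 10.61% of such stretches of Tlr1 and 9.25% of those of Tlr6 occur in another gene. Reads from these stretches cannot be assigned to either gene by sequence alone. Tlr3 shares 4.28% with Gm45542 on the other strand, and Tlr2, Tlr4, Tlr5, Tlr7, Tlr8, Tlr13 and Cd14 share none.

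RefSeq promoters (GRCm38.p6, 250 bases before to 50 after the start) matched 7 of the 10 genes. The set of promoters used here held no match for Tlr4, Tlr7 and Cd14. Those of the TLR2 group and Tlr13, 4 of the 5 receptors called higher in DNCB than in control (Tlr4 is the other), are printed below so that their letters can be compared. Each is the part before the first exon, read on the strand of its gene: Tlr1 at chr5:64933564-64933808 (minus), Tlr2 at chr3:83841768-83841858 (minus), Tlr6 at chr5:64960098-64960298 (minus) and Tlr13 at chrX:106143025-106143203 (plus). Capitals mark matches on either strand to GAGGAA, a core bound by the myeloid factor PU.1, or to the NF-κB motif. GAGGAA occurs in 28.3% of 32851 promoters of 300 bases, the NF-κB motif in 8.5%, and TGANTCA (AP-1), searched as well, in 7.8%. None of these motifs overlaps another in the letters shown, apart from NF-κB matches that overlap each other in Tlr2.
Tlr1: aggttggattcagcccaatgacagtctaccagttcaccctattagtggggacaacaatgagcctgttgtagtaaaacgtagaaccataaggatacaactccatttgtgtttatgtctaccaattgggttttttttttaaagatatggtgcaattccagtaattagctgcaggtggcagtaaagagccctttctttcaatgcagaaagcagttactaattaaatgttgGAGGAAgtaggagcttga
Tlr2: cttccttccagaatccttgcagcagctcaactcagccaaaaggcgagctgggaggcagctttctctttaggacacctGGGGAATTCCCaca
Tlr6: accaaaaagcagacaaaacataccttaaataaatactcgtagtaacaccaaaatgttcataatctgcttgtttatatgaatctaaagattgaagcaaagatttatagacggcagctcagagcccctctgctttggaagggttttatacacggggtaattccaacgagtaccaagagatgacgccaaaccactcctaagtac
Tlr13: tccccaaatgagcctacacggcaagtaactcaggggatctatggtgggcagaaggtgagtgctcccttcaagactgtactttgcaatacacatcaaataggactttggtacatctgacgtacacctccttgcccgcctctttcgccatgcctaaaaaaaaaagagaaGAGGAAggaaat
Tlr1 and Tlr13 each hold GAGGAA close to the start, and the stretch of Tlr6 holds none of the 3 motifs. Tlr2 holds 1 stretch of NF-κB matches in the letters shown and 2 in its whole window, the other lying inside the gene. Tlr1 and Tlr6 each have another RefSeq promoter, and neither of those holds any of the 3. Among the other receptors, Tlr8 has GAGGAA on the opposite strand, Tlr3 an NF-κB match in a window that lies inside the gene, and Tlr5 none, and TGANTCA is in none of the 7. A match is a description of letters, not a site.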

How the data were processed

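RNA-seq values of dorsal skin from 12 mice were taken from the deposited table of 36400 genes, with 4 groups of 3 libraries assigned from the sample labels. The table holds FPKM values that the authors computed, and their processing notes name HISAT2 2.0, StringTie 1.3.0, Bowtie 0.12.2 and the build mm8 without a role for each. It also holds estimated counts, deposited by the authors as whole numbers, and these were used as deposited. In the low range 38.9 to 41.2% of these counts per library are multiples of 4, and the rest are not. About 4 counts per fragment is assumed, so 3 fragments, or 12 counts, is taken as the floor in each library. The strand of counting is not stated. Coordinates in the table match GRCm38: 36287 of 36400 gene IDs are in GENCODE M21 and 36285 overlap their position there.

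Counts summed to between 63877153 and 75134001 per library. Tests were run on the 21890 genes with an average of 0.1 FPKM or more. The test was the edgeR quasi-likelihood F-test with TMM factors (0.887 to 1.06; common biological coefficient of variation 0.42), 4 groups in 1 model and 6 comparisons, with p-values adjusted by Benjamini-Hochberg over the tested genes. A gene is called at an adjusted p under 0.05 with an absolute log2 fold change over 1, and adjusted p alone is used for single genes across alternatives. All adjusted p-values given are from edgeR unless another tool is named. They set the difference between groups against the spread among mice within groups, pooled over the groups of the model. An exact test of 3 against 3 cannot go below 0.10. The pipeline was tested on simulated data with known changes. Errors are SE for fold changes and SD for FPKM.

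All 10 genes are named. Of each pathway list the text names up to 4 called genes with the largest change against control and up to 2 of the most abundant not called, and of each marker list the counts and sums, apart from 1 list that is not reported here. Like genes are the 3 with the highest correlation. The 10 genes and the lists were chosen with earlier results of these data known. Alternatives were RLE factors, library size alone, no filter, at least 1 FPKM, DESeq2, limma on log2(FPKM + 0.1) and log2(FPKM + 1), counts divided by 4, only the 6 libraries compared, a replicate block, and leaving out each library in turn. Promoters come from RefSeq (GRCm38.p6). Tools were R 4.3.3, edgeR 4.0.16, limma 3.58.1, DESeq2 1.42.0, Python 3.11.15, numpy 2.4.6, pandas 2.3.3 and matplotlib 3.10.9.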

Additional observations from a re-analysis of the deposited data

How the results depend on the processing

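Over the 10 settings other than leaving out a library, 336 of 357 single-receptor differences kept their direction and their side of adjusted p 0.05, 10 lost it, 7 gained it and 4 changed sign; over 432 leave-one-out values, the counts were 382, 30, 5 and 15. Of single-receptor differences the report does not print, 42 of 525 changed sign. The named pathway genes were added to the alternatives after seeing the data: 385 of 390 kept both, 1 lost and 4 gained the threshold, and over 468 leave-one-out values 442 kept both, 24 lost, 1 gained and 1 changed sign (Sigirr, DNCB against scMSC, -0.38 to 0.0073). Sign changes, all near 0, were Tlr3 in DNCB against control (0.13 by library size alone, 0.17 and 0.079 by limma with pseudocounts 0.1 and 1) and Tlr5 against scivMSC (0.015 by limma with 0.1). Leave-one-out ranges that cross 0 were, for DNCB against control, Tlr3 -0.40 to 0.24, Tlr5 -0.13 to 0.26 and Tlr7 -0.23 to 1.62 (without control 3); against scMSC, Tlr3 -0.077 to 0.47; against scivMSC, Tlr3 -0.060 to 0.39 and Tlr5 -0.28 to 0.19. Tlr4 against control loses its call without a filter (adjusted p = 0.0571) and with the 6 libraries alone (0.0751). Tlr8 against control passes with limma on log2(FPKM + 1) (adjusted p = 0.0399), and Tlr13 against scivMSC passes with DESeq2 (0.000731), limma with 0.1 (0.0184) or 1 (0.00169), counts divided by 4 (0.0287) and the stricter filter (0.0423). Tlr2 in scMSC against control ranged in adjusted p from 0.0246 to 0.0992 leaving out 1 library and from 0.00397 to 0.106 over the other settings. Tlr3 has no value under the filter of 1 FPKM, since it averages 0.977. With limma on log2(FPKM + 1), the log2 fold changes of Tlr1 in DNCB were 1.98, 2.29 and 2.31 against control, scMSC and scivMSC. Those of Tlr13 were 2.46, 2.20 and 2.21 there, all smaller than with edgeR, while Cd14 had 4.87 against scMSC and 4.55 against scivMSC. Of the 10 genes, 3 to 6 were called in DNCB against control leaving out 1 library, 0 to 2 in scMSC against control, and 0 to 1 in scivMSC against control (1 by DESeq2). Leaving out 1 library, all genes called ranged from 1222 to 2008 in DNCB against scMSC (2493 by DESeq2), from 476 to 1442 against scivMSC (1883 by DESeq2), from 843 to 1798 in scivMSC against control (2087 by DESeq2, 795 with the 6 libraries alone), from 1364 to 2326 in scMSC against control (2667 by DESeq2, 1300 by limma on log2(FPKM + 1)), and from 1 to 5 in scMSC against scivMSC (114 by DESeq2, 2 by limma with 0.1, 3 with the 6 libraries alone). With a replicate block, 5, 4 and 3 of the 10 genes were called in DNCB against control, scMSC and scivMSC and 0 in the other 3 comparisons, with 2866, 1566, 845, 1835, 1344 and 1 genes in all; Tlr4 against control (adjusted p = 0.0573), Tlr13 against scMSC (0.0751), Tlr6 against scivMSC (0.0553) and Tlr2 in scMSC (0.0563) fell short. Libraries of the same number are merely numbered alike: 18 such pairs had r from -0.185 to 0.133 (median -0.022) and 36 other pairs from -0.148 to 0.148, and 3 of 12 libraries were closest to their own number. Library size alone moves the median of all genes by 0.18 in DNCB against control (60.8% of calls higher, 46.5% with TMM), 0.16 in scMSC (68.8 and 54.9%) and 0.18 in scivMSC against control (66.7 and 51.1%), and limma on FPKM moves it alike (0.18, 0.15 and 0.15 with 0.1). The cause was not tested for any of these. With 3 mice a group and receptor levels near 1 FPKM, the wide intervals of Tlr7 and Tlr8 limit what can be said of them.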

Other observations

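Receptors outside the 10 genes were low. Tlr9, a DNA receptor, had 0.222, 0.173 and 1.06 FPKM in control mice, 0.366, 0.627 and 0.388 in DNCB, 0.315, 0.118 and 0.177 in scMSC, and 0.0797, 0.352 and 0 in scivMSC, highest in control 3. Tlr11 and Tlr12 were too low to test, with group means of at most 0.18 and 0.101 FPKM.

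Other markers of immune cells are given for the same libraries as the receptors, and their part was not tested. Counts are by edgeR for DNCB against control, scMSC and scivMSC in turn. They are to be read beside the 14.2, 8.5 and 5.46% of all tested genes called in either direction. Conventional dendritic cell markers gave 0 of 6 called in each (1, 1 and 0 at an unadjusted p under 0.05; 1, 1 and 0 by DESeq2; 0 by limma), with Itgax most abundant (1.35 FPKM). Their sums were 2.52, 1.68 and 3.88 FPKM in control, 3.61, 4.34 and 3.56 in DNCB, 3.25, 1.93 and 2.16 in scMSC, and 4.4, 3.2 and 2.12 in scivMSC. Of plasmacytoid dendritic cell markers, 3 of 4 were tested, with 1 lower against control (Cox6a2), 0 in the other comparisons (0 at an unadjusted p under 0.05, by DESeq2 or by limma), and Klk1 at 0 in 7 libraries. They summed to 347, 344 and 225 FPKM in control, 55, 59.8 and 71.3 in DNCB, 77.3, 51 and 108 in scMSC, and 63.7, 47.4 and 164 in scivMSC. Most of that sum is Cox6a2 (mean 134 FPKM over 12 libraries), which is also a muscle gene and moves with the skeletal muscle sums below, so the sum is not shown to come from plasmacytoid dendritic cells. T cell markers gave 1, 1 and 0 higher of 5 tested of 6, the 1 being Cd4 (in the last, 1 at an unadjusted p under 0.05 and 0 by DESeq2 and limma), with Trac at 0 in 3 libraries and Cd8a in 2. Against control, Cd4 had a log2 fold change of 1.78 (adjusted p = 0.0357), while Cd3e, Cd3g and Cd3d had -1.54, -1.16 and -0.33 (adjusted p = 0.143, 0.0899 and 0.675), Trac had 1.85 (adjusted p = 0.456), and the median of the list was -0.33. The Cd4 call against control is lost without control 1, control 2, DNCB 2, DNCB 3 or scMSC 2, and that against scMSC without DNCB 2, DNCB 3, scMSC 2 or scMSC 3. These came to 2.86, 1.69 and 3.91 FPKM in control, 2.9, 3.03 and 3.28 in DNCB, 2.22, 1.23 and 0.605 in scMSC, and 2.35, 1.61 and 2.23 in scivMSC, with Cd3g most abundant (0.773 FPKM).

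Markers of other skin cells follow, in the same order of comparisons. Their counts are to be read beside the 14.2, 8.5 and 5.46% of all tested genes called in either direction. Keratinocyte markers gave 2 of 5 higher in each comparison, with sums of 4360, 6560 and 9600 FPKM in control, 17200, 19000 and 13000 in DNCB, 7700, 5160 and 4390 in scMSC, and 9810, 14200 and 7390 in scivMSC. Fibroblast markers gave 3, 2 and 0 higher of 4 (against scivMSC, 3 at an unadjusted p under 0.05, 2 by DESeq2 and 1 by limma), with Col1a1 most abundant (261 FPKM). Their sums were 171, 138 and 196 FPKM in control, 1200, 1330 and 1030 in DNCB, 445, 144 and 220 in scMSC, and 429, 569 and 80.2 in scivMSC, highest in DNCB mice. Endothelial markers gave 0, 2 and 1 higher of 4 (against control, 2 at an unadjusted p under 0.05, 0 by DESeq2 and 1 by limma), with Pecam1 most abundant (11.4 FPKM) and sums of 29.3, 21.6 and 24.2 FPKM in control, 43.7, 41.6 and 50.5 in DNCB, 31.2, 17.7 and 19.6 in scMSC, and 30.2, 33.2 and 11.7 in scivMSC. Adipocyte markers gave 1 lower, 0 and 1 higher of 4 (against scMSC, 1 at an unadjusted p under 0.05 and 0 by DESeq2 and limma), with Fabp4 most abundant (139 FPKM) and sums of 254, 203 and 137 FPKM in control, 105, 124 and 185 in DNCB, 303, 237 and 154 in scMSC, and 274, 249 and 203 in scivMSC. Skeletal muscle markers gave 3 lower, 0 and 0 of 4 (against the MSC groups, 0 at an unadjusted p under 0.05, by DESeq2 or by limma), with Acta1 most abundant (4840 FPKM) and sums of 16200, 17200 and 11700 FPKM in control, 3150, 3940 and 4740 in DNCB, 5640, 3310 and 7140 in scMSC, and 4750, 3610 and 8490 in scivMSC. Of the hair shaft and inner root sheath markers, 5 of 6 are in the table, and 0, 2 lower and 0 were called. Against control and scivMSC, 1 and 3 had an unadjusted p under 0.05, and DESeq2 called 0 and 1. Limma called 4 and 0 there on log2(FPKM + 0.1) and 4 and 1 on log2(FPKM + 1). Against scMSC, DESeq2 calls 4, and fitting only the 6 libraries compared calls 5 there and 5 against scivMSC. With Krt71 most abundant (1280 FPKM), they summed to 9.58, 288 and 3.2 FPKM in control, 400, 276 and 853 in DNCB, 5770, 16200 and 8240 in scMSC, and 5380, 2210 and 2940 in scivMSC, so MSC-treated mice are highest and control mice differ widely among themselves.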
